A study of Rattus norvegicus with 59 samples.

Results

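Nppa (ENSRNOG00000008176) and Nppb (ENSRNOG00000008141) encode the precursors of atrial and B-type natriuretic peptide. They were chosen by name and are 2 of the 22938 genes in the count tables. Both are also among the 12848 genes of the authors' table that compares sorted nuclear fractions. The natriuretic peptides are hormones that heart muscle cells release when stretched. They act on a receptor that makes cyclic GMP, relax blood vessels and promote the excretion of salt and water by the kidney. In the adult heart Nppa is mainly an atrial gene and is low in the ventricle, while Nppb is made in both chambers, and a rise of both in the ventricle is a textbook marker of cardiac hypertrophy.

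Male Sprague Dawley rats provided all samples. Left ventricular nuclei were sorted as positive for PCM1, a protein at the nuclear envelope of cardiomyocytes. For the surgery experiment, animals weighed near 170 g when a band was placed on the ascending aorta. The band stayed for 6 weeks, and only hearts that had enlarged without failing were kept. Sham rats went through the operation with the suture left untightened. For the exercise experiment, animals that weighed near 280 g ran treadmill intervals over 6 weeks, and untrained animals of that weight, 280 g, were the controls. Each library was made from at least 100000 nuclei with 18 cycles of PCR, per the labels. The labels do not say that replicates were separate animals, so the p-values here speak only of the spread among samples, part of which may be technical.

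Each of the 4 groups had 4 RNA libraries with counts. A further control library of PCM1-positive nuclei, replicate 5, had none, so control values here are those of replicates 1 to 4 only. Total counts per library were 3.18 to 14.1 M in sham, 2.58 to 14.4 M in banded, 1.82 to 7.80 M in control and 2.14 to 7.60 M in exercise libraries. Sham replicates 2 and 3 were nearly as alike as counting noise allows. Over 8196 genes of middling count, their squared difference averaged 1.07 times its counting variance, against 2.70 to 28.2 times in the other 23 pairs within a group. They were therefore added and counted as 1 sample, called sham replicate 2-3, which leaves 3 sham samples. The 1319 genes with an excess above 8-fold on the PCM1-negative side of the authors' deposited fraction table took 4.32% of counts in sham replicate 1 and 4.45% in banded replicate 1. Their share was between 0.536% and 1.68% in every other library, so these 2 libraries stood apart, and the fitted surgery results and the ratio are given with and without them. The correlation was recomputed without each of them in turn, but not without both.

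Nppa and Nppb are direct neighbours on the rat genome, with no annotated gene between them in RefSeq's GRCr8 annotation. The nearest annotated gene on the Nppb side is 2510039O18Rikl, and the nearest on the Nppa side is Clcn6. The 250 bases before each RefSeq start are printed here because this short stretch is the classic site of cardiac promoter control, where GATA4, a zinc finger factor of heart muscle, is known to act. Capitals mark the letters GATAA, and both genes lie on the plus strand. The Nppa window is chr5:163711934-163712183 and the Nppb window is chr5:163699758-163700007.
Nppa: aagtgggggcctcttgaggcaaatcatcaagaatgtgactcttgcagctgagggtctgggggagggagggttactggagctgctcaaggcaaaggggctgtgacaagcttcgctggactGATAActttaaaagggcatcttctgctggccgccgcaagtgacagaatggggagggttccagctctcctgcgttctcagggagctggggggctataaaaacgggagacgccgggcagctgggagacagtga
Nppb: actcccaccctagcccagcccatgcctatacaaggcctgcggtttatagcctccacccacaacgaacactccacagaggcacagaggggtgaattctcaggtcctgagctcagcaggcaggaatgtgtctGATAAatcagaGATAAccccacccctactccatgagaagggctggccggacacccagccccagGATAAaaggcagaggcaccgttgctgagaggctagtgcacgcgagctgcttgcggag
The Nppa window held 1 GATAA match, 131 to 127 bases before the start, and the Nppb window held 3, which begin 120, 109 and 57 bases before it. GATAA on either strand (TTATC on the other) was found in 23.5% of the 33469 rat promoter windows of the same length. TATAAA, the TATA box, occurred in 12.9% of windows on either strand. It lay 39 to 34 bases before the start on the plus strand in Nppa, and the single Nppb match was on the minus strand 208 to 203 bases before the start. AAGTG, the core of an NKX2-5 site, matched at 2 places in Nppa and at 0 in Nppb (40.6% of windows). GGAATG, the MCAT element bound by TEAD factors, matched at 1 place in Nppb, 131 to 126 bases before the start, and at 0 in Nppa (12.1% of windows). TGACTC, an AP-1 site, matched at 1 place in Nppa (12.6% of windows), and GGTGTG, a T-box site, at 0 in both (15.4% of windows). None of these motifs overlapped another in these 2 windows. These are matches of letters and no binding was measured.

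The sort provides a check of where the RNA was found. In the authors' deposited table, Nppa was 22.3-fold higher in PCM1-positive than in PCM1-negative nuclei, with a false discovery rate of 8.07e-16. Nppb was 35.2-fold higher in PCM1-positive nuclei in the authors' deposited table, with a false discovery rate of 3.95e-31. Across the 12848 genes of that table, 138 were more enriched in PCM1-positive nuclei than Nppa and 24 more than Nppb. Only 604 genes (4.70%) passed a false discovery rate of 0.05 with more than an 8-fold excess in PCM1-positive nuclei, and both peptide genes were among them. The table's sign was read from the data, since genes with a negative log2 fold change were relatively high in the library of PCM1-positive nuclei of control replicate 1. By the labels, PCM1-negative RNA came only from untrained control replicates 1 and 5, so the table cannot cover banded, sham or exercise hearts. Both genes were thus near the top of the genes enriched in the cardiomyocyte fraction of the untrained control ventricle.

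**Figure D1:**
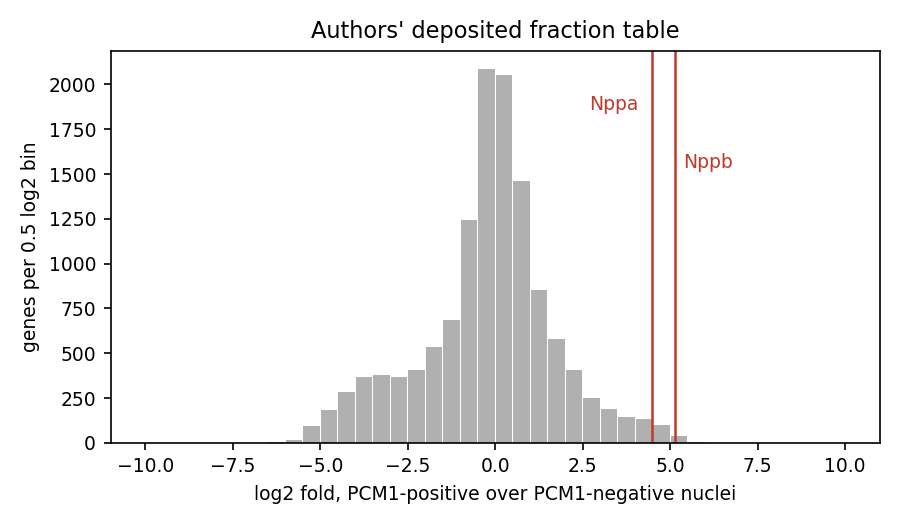
Number of genes (vertical axis) by log2 fold between PCM1-positive and PCM1-negative nuclei (horizontal axis, 0.5 log2 per bar) in the authors' deposited table, with red lines at Nppa and Nppb. Both lines lie in the thin right-hand tail, at 22.3-fold for Nppa and 35.2-fold for Nppb.

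In control replicates 1 to 4, from untrained, unoperated rats, Nppa was low and even. Its level, in CPM (the count scaled to a library total of 1000000), was 5.25, 6.58, 5.39 and 4.45 in control replicates 1 to 4, a mean of 5.42 ± 0.882 (SD, n = 4). These levels rest on 41, 12, 28 and 16 reads, and the exact 95% binomial interval of control replicate 2 ran from 3.40 to 11.5 CPM, so much of the spread in this group lies within counting error. Such intervals cover counting error only, because reads copied by PCR are not independent molecules. Nppb varied more in the same 4 libraries, at 35.9, 125.1, 67.0 and 48.6 CPM, a mean of 69.1 ± 39.4 (SD, n = 4). Control replicate 2 was the highest of the control libraries for both genes. Levels are not per transcript length, so Nppa and Nppb are not compared with each other.

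**Figure D2:**
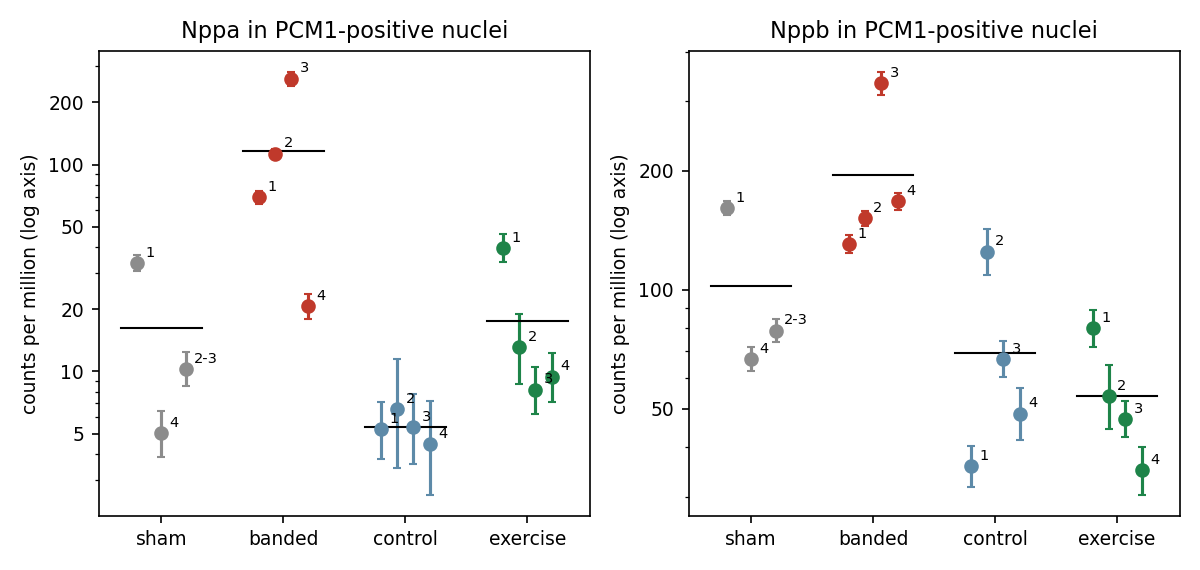
Level of Nppa (left) and Nppb (right) in CPM on log axes, 1 point per sample with its replicate number, its exact 95% binomial interval as a bar and the group mean as a black line. Control libraries lie between 4.45 and 6.58 CPM for Nppa and every exercise library lies above them, while 3 of 4 banded libraries lie above every sham sample.

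Banding asks what pathological pressure overload does to these genes. Nppa was higher in most banded hearts, but the banded libraries spread widely. Nppa was at 33.5 CPM in sham replicate 1, 10.3 in sham replicate 2-3 and 5.04 in sham replicate 4, a mean of 16.3 ± 15.1 (SD, n = 3). In banded replicates 1 to 4 it was at 69.6, 113.03, 260.2 and 20.7 CPM, a mean of 115.9 ± 103.3 (SD, n = 4). Kept apart, sham replicates 2 and 3 were at 8.17 and 11.2 CPM for Nppa. The ratio of the group means was 7.12 and that of the group medians 8.87. Banded replicates 1 to 3 lay above every sham sample, sham replicates 2-3 and 4 lay below every banded one, and sham replicate 1 lay above banded replicate 4, so the groups overlapped. In bulk nuclei, a larger share of cells with the RNA and more RNA per cell cannot be told apart.

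The fitted log2 fold change of Nppa was 2.90 (SE 0.91, 95% interval 0.82 to 4.98), and no gene of the 12689 tested had a larger one. Its unadjusted p was 0.0122, which 48 genes undercut, and its adjusted p was 1.00 by edgeR's quasi-likelihood test with Benjamini-Hochberg adjustment. In this comparison 1 gene (0.00788%) passed an adjusted p of 0.05 and 234 genes (1.84%) an unadjusted p of 0.05. The median log2 fold change over all genes was -0.01. Nppa thus had the largest fold of the comparison and did not pass the adjusted test. Without sham replicate 1 and banded replicate 1, the pair with a high share of PCM1-negative genes, the log2 fold change was 4.07 with an adjusted p of 1.00 by edgeR. Without banded replicate 3, the library with the highest Nppa and the fewest counts of the 4, the estimate was 2.13.

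Nppb showed a smaller difference in the same direction. It was at 160.9 CPM in sham replicate 1, 78.9 in sham replicate 2-3 and 66.9 in sham replicate 4, a mean of 102.2 ± 51.2 (SD, n = 3). In banded replicates 1 to 4 it was at 130.6, 151.7, 333.2 and 167.6 CPM, a mean of 195.8 ± 92.9 (SD, n = 4). Banded replicates 3 and 4 lay above every sham sample, and sham replicate 1 lay above banded replicates 1 and 2. The log2 fold change was 0.98 (SE 0.40, 95% interval 0.06 to 1.90), with an unadjusted p of 0.0401 and an adjusted p of 1.00 by edgeR, and 170 genes had a larger log2 fold change. Without sham replicate 1 and banded replicate 1 it was 1.55, with an adjusted p of 0.941 by edgeR. Without banded replicate 3 it was 0.58, so this library with 2.58 M counts moved the estimates of both genes. It held the highest level of both Nppa and Nppb among all samples. With sham replicates 2 and 3 kept apart, the log2 fold changes were 3.02 for Nppa and 1.05 for Nppb.

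The authors' deposited table gives 1 value per group and a far smaller false discovery rate for these genes. Its group values equal the median over the 4 libraries of each group, with sham replicates 2 and 3 apart, to within 0.01 on the log2 scale for 100% of the genes with at least 10 counts in every library of the group. In the authors' deposited table, Nppa was at 9.70 RPM (reads scaled as for CPM) in sham and 91.3 in banded hearts, with a false discovery rate of 1.09e-34. Nppb was at 78.7 RPM in sham and 159.7 in banded hearts in the authors' deposited table, with a false discovery rate of 7.56e-22. That table lists 335 genes (1.46%) as higher in banded hearts at a false discovery rate under 0.05. Nppa had the largest difference of these 335 and Nppb was behind 69 others. No source used here names the test behind these rates, so the edgeR values and these rates are set side by side without further comparison.

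**Figure D3:**
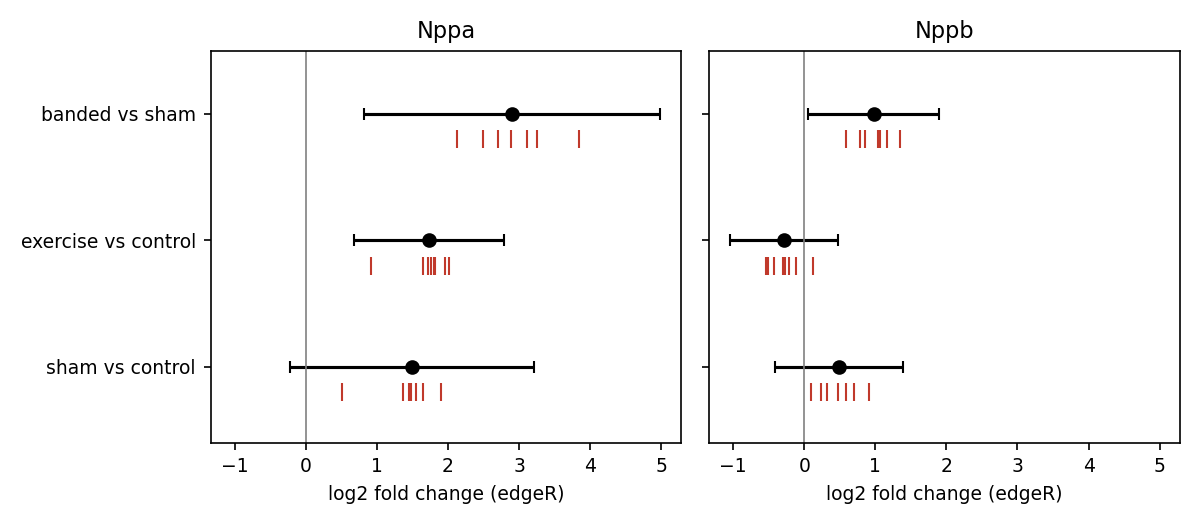
Log2 fold change (horizontal axis) of Nppa (left) and Nppb (right) in 3 comparisons, as edgeR's estimate with its 95% interval (black), and red ticks for the estimate with each sample of the 2 compared groups left out in turn. The Nppa estimate for banded against sham is 2.90 and stays between 2.13 and 3.84, and that of Nppb for exercise against control is the one whose ticks fall on both sides of 0.

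Training asks the same question of treadmill exercise. Nppa was higher in every exercise library than in every control library with counts, and Nppb was not. Nppa was at 39.6, 13.1, 8.16 and 9.44 CPM in exercise replicates 1 to 4, a mean of 17.6 ± 14.8 (SD, n = 4), from 165, 28, 62 and 55 reads. The lowest of these, 8.16 CPM with an exact 95% binomial interval of 6.26 to 10.5, lay above the highest control, 6.58 CPM, although their intervals overlapped. Such complete separation in this direction held for 157 of the 10815 genes tested (1.45%). The log2 fold change was 1.73 (SE 0.48, 95% interval 0.68 to 2.79), with 2 genes having a larger one. Its unadjusted p was 0.0037 and its adjusted p was 0.422 by edgeR's quasi-likelihood test.

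By that test 0 genes (0%) passed an adjusted p of 0.05 in the training comparison, and 761 genes (7.04%) had an unadjusted p under 0.05. DESeq2 called 32 of the same 10815 genes, 22 higher and 10 lower in exercise samples. Nppa was among those 32, with a log2 fold change of 1.74 and an adjusted p of 0.0342 by DESeq2, so its call depends on the tool. Exercise replicate 1 held the highest Nppa of its group. Without it the log2 fold change of Nppa was 0.92, with an adjusted p of 0.445 by edgeR, and the other 3 exercise libraries still lay above all 4 controls. The share of counts from PCM1-negative genes was 0.611% to 0.865% in the exercise libraries and 0.536% to 0.956% in the controls, so it did not separate these groups.

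Nppb was at 80.1, 53.8, 47.1 and 35.0 CPM in exercise replicates 1 to 4, a mean of 54.02 ± 19.1 (SD, n = 4). The exercise values lay within the range of the controls except replicate 4, which lay just below the lowest control. The log2 fold change was -0.28 (SE 0.35, 95% interval -1.04 to 0.48), with an adjusted p of 0.906 by edgeR. Its direction rested on control replicate 2, without which the estimate was 0.12. It was -0.54 without exercise replicate 1, -0.52 without control replicate 1, -0.42 without control replicate 4 and -0.11 without exercise replicate 4. The interval leaves room for a modest change of Nppb in either direction. In the authors' deposited table, Nppa was at 5.32 RPM in control and 11.3 RPM in exercise hearts, with a false discovery rate of 0.820. Nppb was at 57.8 RPM in control and 50.5 RPM in exercise hearts in the authors' deposited table, with a false discovery rate of 0.0527. That table lists 146 genes (0.636%) as higher in exercise hearts at a false discovery rate under 0.05, and neither peptide gene is one of them.

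Whether banding and training differed in their effect was tested as an interaction in a fit of all 4 groups. For Nppa the banding effect exceeded the training effect by 1.13 on the log2 scale (SE 1.07, 95% interval -1.16 to 3.41), with an adjusted p of 1.00 by edgeR. For Nppb the difference was 1.25 (SE 0.59, 95% interval 0.00312 to 2.50), with an unadjusted p of 0.0495 and an adjusted p of 1.00 by edgeR. The size of the Nppa difference hung on single libraries: it was 2.10 without sham replicate 1, 1.93 without exercise replicate 1, 0.72 without sham replicate 4 and 0.38 without banded replicate 3. The Nppb difference was 0.83 without control replicate 2. Without sham replicate 1 and banded replicate 1 together, the difference was 2.33 for Nppa (unadjusted p 0.0493, adjusted p 0.835 by edgeR) and 1.84 for Nppb (unadjusted p 0.00639, adjusted p 0.582 by edgeR). Of the 12650 genes tested, 1 (0.00791%) passed an adjusted p of 0.05. Neither gene was therefore shown to respond differently to banding and training.

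The ratio of Nppa to Nppb within a library does not depend on library size. On the log2 scale it was -2.77, -4.25, -3.64 and -3.45 in control replicates 1 to 4, a mean of -3.53 ± 0.61 (SD, n = 4). In exercise replicates 1 to 4 it was -1.02, -2.04, -2.53 and -1.89, a mean of -1.87 ± 0.63 (SD, n = 4). Every exercise library lay above every control, and the mean ratio was higher by 1.66 on the log2 scale. The exact two-sided permutation p was 0.0286, the smallest that 4 against 4 samples can give, and 0.0571 after adjustment over the 2 comparisons of this ratio. In the surgery experiment the log2 ratio was -2.27 in sham replicate 1, -2.94 in replicate 2-3 and -3.73 in replicate 4, a mean of -2.98 ± 0.73 (SD, n = 3). It was -0.91, -0.42, -0.36 and -3.02 in banded replicates 1 to 4, a mean of -1.18 ± 1.25 (SD, n = 4). The mean was higher by 1.80 in banded samples, with an exact two-sided permutation p of 0.114. Without sham replicate 1 and banded replicate 1, a choice made after seeing the data, the difference was 2.07 (exact permutation p = 0.300). With so few samples left, that test cannot give a p under 0.05 at any difference, so its p decides nothing. Banded replicate 4 kept a ratio within the sham range although its Nppb was the second highest of the banded group.

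**Figure D4:**
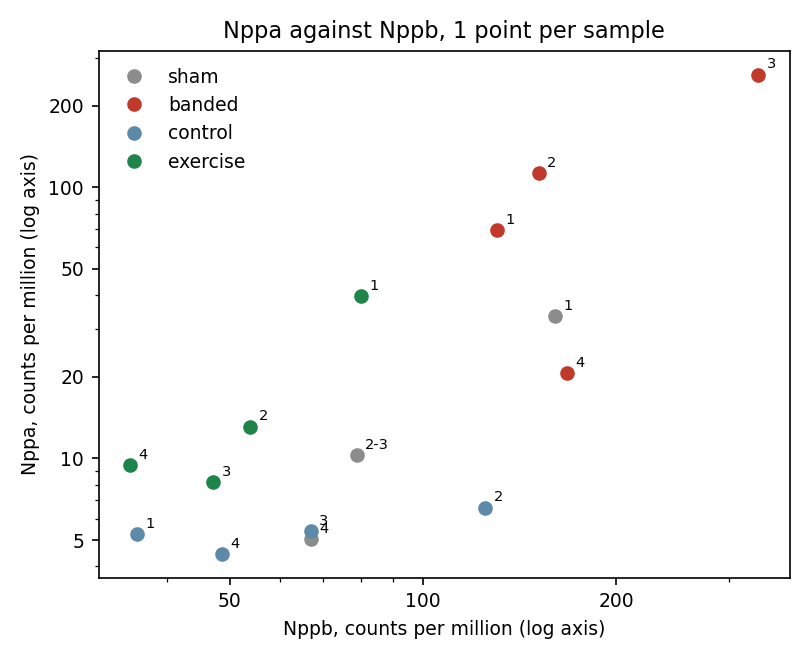
Nppa (vertical) against Nppb (horizontal), both in CPM on log axes, 1 point per sample with its replicate number and coloured by group. The exercise samples lie above the control samples at similar Nppb, and banded replicate 4 lies near sham replicate 1, below the other 3 banded samples.

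Across the 7 surgery samples Nppa and Nppb tended to be high together, though banded replicate 4 was high only for Nppb. Pearson's r of their log2 CPM was 0.861 (exact permutation p = 0.0139, 0.0278 after adjustment over the 2 experiments) and Spearman's rho was 0.750 (exact permutation p = 0.0663, adjusted 0.133). Without banded replicate 3 and sham replicate 4, the samples farthest from the median of Nppa, r was 0.521 (exact permutation p = 0.392). Leaving out extremes narrows the range of Nppa, and only 5 samples remain. The drop therefore cannot show whether the relation rests on those samples. With each value taken as its deviation from the group mean, r was 0.733 (exact permutation p = 0.0627, adjusted 0.125). Across the 8 exercise and control samples r was 0.267 (exact permutation p = 0.514, adjusted 0.514) and rho was 0.286 (exact permutation p = 0.501, adjusted 0.501). Without exercise replicates 1 and 2, r was -0.116 (exact permutation p = 0.832). For deviations from the group mean in that experiment, r was 0.616 (exact permutation p = 0.100, adjusted 0.100), nearer to the surgery value. No relation between the genes was detected among the exercise and control samples, and a difference between the 2 experiments was not tested.

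The sham and control groups are both without pressure overload, but they come from different experiments, so surgery, starting weight and handling cannot be told apart. Nppa was 1.49 higher on the log2 scale in sham than in control samples (SE 0.81, 95% interval -0.23 to 3.21), with an adjusted p of 0.370 by edgeR. Without sham replicate 1 the difference was 0.51, and without banded replicate 1 as well it was 0.50. Nppb was 0.50 higher (SE 0.42, 95% interval -0.40 to 1.40), with an adjusted p of 0.605 by edgeR. That difference was 0.10 without sham replicate 1, with or without banded replicate 1. It was 0.91 without control replicate 2 (unadjusted p 0.0396, adjusted p 0.330 by edgeR), 0.24 without control replicate 1 and 0.32 without control replicate 4. In this comparison 119 of 12650 genes (0.941%) passed the adjusted p. By group mean, Nppa ran from banded (115.9 CPM) through exercise (17.6) and sham (16.3) to control (5.42). Each of these groups overlapped with the next in that order. Nppb ran from banded (195.8 CPM) through sham (102.2) and control (69.1) to exercise (54.02), and each group overlapped with the next.

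The genes of most similar pattern were sought over the 15 samples among 12650 genes, as a description. For Nppa they were ENSRNOG00000020433 (Pearson's r 0.909) and ENSRNOG00000013744 (r 0.895). Mean levels of ENSRNOG00000020433 were 330.6 CPM in sham, 427.1 in banded, 247.1 in control and 261.0 in exercise samples. Those of ENSRNOG00000013744 were 11.4, 29.8, 8.63 and 11.6 CPM in the same order of groups. The genes most similar to Nppb were ENSRNOG00000015278 (r 0.914) and ENSRNOG00000018598 (r 0.912). In that order of groups, mean levels of ENSRNOG00000015278 were 36.1, 48.2, 24.5 and 20.8 CPM. Those of ENSRNOG00000018598 were 549.9, 749.9, 416.7 and 334.9 CPM. Nppa and Nppb had an r of 0.776 with each other over the same samples. Nppb ranked 33 among the genes most similar to Nppa, and Nppa ranked 77 among those most similar to Nppb. The samples share 2 experiments of different depth, and the files pair no ID with a gene name.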

How the data were processed

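Raw counts for 16 RNA libraries were deposited by the authors, 1 whole number per gene. No stored count was below 1, and 2 rows without a gene name, which repeat column totals, were left out. For each group the authors further deposited a log2 RPM value, with false discovery rates (adjusted p-values), and log2 fold changes between nuclear fractions, per the file headers. Upstream tools in the submitters' processing notes were edgeR, R 2.15.1, SAMtools and Bowtie. No source used here states the genome build, counting rule or use of strand, so reads of overlapping genes cannot be told apart.

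CPM was the count over the library total. Counts were tested in R 4.3.3 with edgeR 4.0.16 (TMM factors, quasi-likelihood F test, genes kept by filterByExpr with minimum count 10 and minimum total 15, Benjamini-Hochberg adjustment, threshold 0.05), the surgery and exercise experiments separately, checked on simulated data. The interaction and sham against control used all 4 groups. Alternatives were DESeq2 1.42.0, limma 3.58.1 (voom), other scaling and filters, 1 subtracted from every count, a replicate block and leaving out samples. Correlations used log2 CPM with a prior count of 2. Permutation tests, binomial intervals (Clopper-Pearson) and motif searches used Python 3.11.15, scipy 1.17.1, numpy 2.4.6 and pandas 2.3.3, and figures matplotlib 3.10.9.

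The genes, lists and tests were chosen with earlier results of these data known. The rule for named genes was the 2 peptide genes and, for each, the 2 genes of most similar pattern. Lists of pathway genes and cell type markers were written as names and could not be used: 0 of the 22938 gene IDs matched the reference gene table (GRCr8, 47357 genes). The IDs of Nppa and Nppb came with their choice. Promoter sequences are RefSeq's for GRCr8, matched by symbol for both genes. Chromatin files were not used here, because genes could not be placed on their bins.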

Additional observations from a re-analysis of the deposited data

Results flagged for a closer look

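Nppa in exercise replicate 1, at 39.6 CPM, stood apart from the other 3 exercise libraries, which lay between 8.16 and 13.1 CPM. Its gap to the nearest library was 0.843 of the range of the group, past Dixon's 95% critical value for 4 samples, 0.829. This used CPM without log, and the flag was not tested on the log scale of the fits. It was 1 of 9 sets of 4 values tested in this way, and chance flags about 1 in 20. Nppb was also highest in this library within its group, at 80.1 CPM. The library had 4.17 M counts and 0.865% of them in genes high in PCM1-negative nuclei, and the part of these in the result was not tested. The sham group, with 3 samples, was not examined in this way.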

How the results depend on the processing

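Of 195 values recomputed for 12 results, 183 kept their direction and their side of the threshold. Most of the 12 had not passed it, so keeping their side mostly means staying uncalled. Of those that had, the exercise ratio no longer passed in 5 of 10 alternatives, which decide nothing, and the surgery correlation in 4 of 11. The ratios were judged here by the unadjusted permutation p. After adjustment that of the exercise ratio was 0.0571 and did not pass. For Nppa in exercise against control, DESeq2 gave 1.74 with an adjusted p of 0.0342, while limma voom gave 1.32 (adjusted p 0.607); over all alternatives the adjusted p ran from 0.0342 to 1.00. Nppb in exercise against control ran from -0.54 to 0.12 as samples were left out, above 0 only without control replicate 2. The exercise ratio of Nppa to Nppb stayed between 1.37 and 1.91 as samples were left out, with an exact permutation p of 0.0571 without control replicate 2 or exercise replicate 1, 2 or 4, and of 0.0286 without each of the others. Every remaining exercise ratio still lay above every control ratio. Unequal group sizes then allow either p, so these p-values do not rank the omissions. The correlation ran from 0.742 to 0.921 in the surgery experiment as samples were left out, and was 0.733 for deviations from the group mean. In the exercise experiment it ran from -0.0545 to 0.587 as samples were left out, below 0 only without exercise replicate 1. For deviations from the group mean it was 0.616 there. The cause of these changes was not tested. Nppa and Nppb in banded against sham stayed above 0 and uncalled in all 16 alternatives each.

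The number of genes called was 1 for banded against sham and 0 to 3 under the alternatives, 0 for exercise against control and up to 32 (DESeq2), 1 for the interaction and 0 to 4, and 119 for sham against control and 30 to 613.

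Replicate numbers are shared between groups. Deviations of same-numbered samples correlated at 0.760, 0.493, 0.146 and 0.0895 in surgery and at -0.0210, 0.0761, 0.138 and 0.0572 in training. The main fits did not take the numbers as pairing, although the first surgery values were high. The replicate block, with sham replicates 2 and 3 kept apart, gave 2.76 for Nppa (SE 0.54) and 1.00 for Nppb (SE 0.33) in banded against sham. By edgeR their unadjusted p was 0.000694 and 0.0137, and their adjusted p 0.371 and 0.679. With the same samples and no block, the unadjusted p by edgeR was 0.00408 and 0.0156. The block gave 1.58 and -0.21 in exercise against control, and 1.13 and 1.21 for the interaction. With same-numbered pairs the ratio differed by 1.84 in surgery, with sham replicates 2 and 3 kept apart, and by 1.66 in training. Both had an exact sign-flip p of 0.125, the smallest 4 pairs allow, so neither could pass. The surgery pairs thus count as 2 what the main tests took as 1 sham sample. Sham replicates 1 and 2 and control replicates 2, 3 and 4 correlated best with the treated sample of their own number. Sham replicates 3 and 4 and control replicate 1 correlated best with another. Depth limits Nppa most in control libraries, with 12 to 41 reads.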
